A study of Rattus norvegicus with 9 samples.

Results

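The proteasome genes of rat alveolar macrophages, the resident phagocytes of the air spaces, were examined after a single lung injury with nitrogen mustard. The members were all genes whose symbol begins with Psma, Psmb, Psmc, Psmd, Psme, Psmf or Psmg. They came to 46 of the 17088 genes obtained by summing deposited transcript values per symbol. A further 8 protein-coding symbols that fit the rule in the RefSeq table, Psmd11, Psmg1, Psmg3, Psmb11, Psmb6l1, Psmb3l1, Psmb3l2 and Psmg4l1, were not analysed here. Male Wistar rats received PBS or nitrogen mustard (NM, mechlorethamine hydrochloride, 0.125 mg/kg) into the trachea, and their alveolar macrophages were taken by massage of the lung for RNA sequencing. The 3 groups were PBS, NM at day 1 and NM at day 28, with 3 libraries each, numbered 0, 1 and 2, which the series' design text calls biological replicates. The labels name no genetic change in the animals, which weighed 225 to 250 g when bought. When the PBS cells were collected is not stated in the labels. No separate PBS group is named for each day, so age and collection occasion cannot be told apart from time since NM.

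The proteasome is the main protease for ubiquitin-tagged proteins in the cytosol and nucleus. Its barrel-shaped core has outer rings of alpha subunits, which gate the entry, and inner rings of beta subunits, of which 3 cut peptide bonds. A regulatory cap made of ATPases and non-ATPase subunits binds, unfolds and feeds in ubiquitinated proteins, while other activators open the core without ubiquitin. In cells exposed to interferon, and constitutively in many blood cells, newly built cores carry Psmb8, Psmb9 and Psmb10 in place of Psmb5, Psmb6 and Psmb7. This form is the immunoproteasome, which yields peptides suited to presentation on MHC class I.

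Expression is given in FPKM, sequenced fragments scaled by transcript length and by library size, which allows levels to be compared between genes. The libraries had near-equal upper quartiles of FPKM, 19.12 to 19.65, but not a common total. Their summed FPKM ran from 7.094e+05 for NM day 1 replicate 0 to 9.695e+05 for PBS replicate 0. A gene was tested if it reached an FPKM of 1 in at least 3 of the 9 libraries, which 9876 genes did. Tests were made with limma on log2(FPKM + 1) over all these genes together, and a difference was called when its Benjamini-Hochberg adjusted p was under 0.05. All 46 proteasome genes were tested. The relative depth of the 9 libraries, read from the smallest steps between low FPKM values, ran from 1 for NM day 1 replicate 0 to 2.59 for PBS replicate 0, and was 1.42 or more in PBS and 1.47 or less in the NM libraries.

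The proteasome genes were abundant. Their mean FPKM over the 9 libraries stood at a median percentile of 89.1 among the tested genes, with a range from 44.1 to 97.6. The alpha ring genes ran from a mean FPKM of 15.8 for Psma8, which in the mouse is a testis form of an alpha subunit, to 283 for Psma7. The structural beta genes, which complete the inner rings without cutting, were higher, from 128 for Psmb2 to 428 for Psmb3. The constitutive catalytic genes lay between 94.4 for Psmb5 and 160 for Psmb6, and the immunoproteasome genes between 146 for Psmb8 and 176 for Psmb10. In the PBS libraries Psmb8, Psmb9 and Psmb10 each made up more than their counterpart, at 64.5%, 53.0% and 54.5% of the summed FPKM of the pair. The cap ATPases, which unfold substrates, spanned 38.8 for Psmc6 to 141 for Psmc4. The non-ATPase cap genes, which include ubiquitin receptors and a deubiquitinase, spanned 39.1 for Psmd3 to 231 for Psmd4. The cap assembly chaperones spanned 13.9 for Psmd5 to 99.9 for Psmd10, and the activators and inhibitor of the core 37.9 for Psmf1 to 300.4 for Psme1. The core assembly chaperones Psmg2 and Psmg4 had mean FPKM of 36.3 and 149. Psmc3ip and Psme3ip1, which carry a proteasome symbol but are not known as parts of the particle, had 15.9 and 46.1.

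The spread between replicates was near that of all tested genes in PBS and at NM day 28 and lower at NM day 1. No comparison with genes of like level was made. The median coefficient of variation of the members was 16.9% in PBS, 11.0% at NM day 1 and 19.6% at NM day 28, beside 17.9%, 16.0% and 20.7% over all tested genes. Psmd10, a chaperone of cap assembly also known as gankyrin, varied most in both NM groups, with FPKM of 228, 50.6 and 115 in the NM day 1 libraries and 29.0, 80.4 and 104 in the NM day 28 libraries. A pair of libraries, from different groups, stood low across the members. NM day 28 replicate 1 held the lowest of its group's values for 39 of 46 proteasome genes, against 39.5% of all tested genes, and the lowest of all 9 values for 19 of them. PBS replicate 2 likewise held the lowest value of its group for 39 of the 46, against 41.7% of all tested genes. Each was left out in turn, and what changed is given beside the main results.

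**Figure D1:**
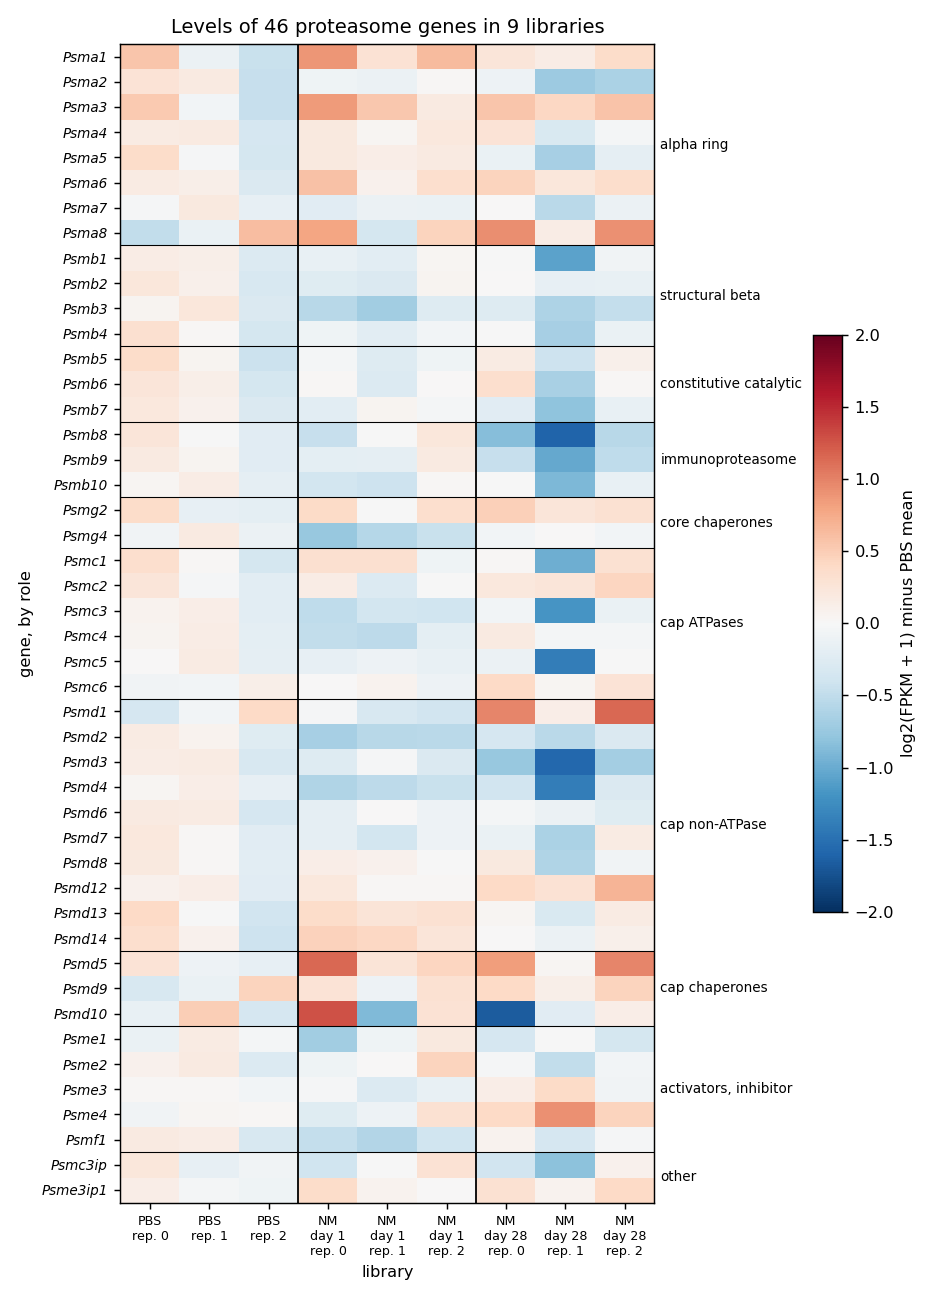
Levels of the 46 proteasome genes (rows, ordered by role) in the 9 libraries (columns), as log2(FPKM + 1) minus the mean of the 3 PBS libraries, with blue lower and red higher. The column of NM day 28 replicate 1 is the bluest, Psmb8 and Psmb9 are blue in all 3 day 28 libraries, and Psmd1 is red in day 28 replicates 0 and 2.

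Reads from near-identical copies can be shared out between genes in such a quantification. The RefSeq table lists pseudogenes for 19 of the 46 members, up to 7 for Psmb3, and values of these 19 genes are uncertain to that extent. The 3 immunoproteasome genes and Psmb5 have no listed pseudogene, whereas Psmb6 and Psmb7 have 2 each.

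Few proteasome genes differed between the groups, and each is given here beside the share called among all tested genes. At NM day 1, 0 of 46 were higher than in PBS (5.3% of all tested genes were) and 2, Psmd2 and Psmg4, were lower (4.35% of the members, against 4.59% of all tested genes). Before adjustment, 1 member was higher and 5 were lower at p under 0.05, when 11.6% and 13.7% of all tested genes were. The groups did not overlap for 0 higher and 6 lower members (15.2% and 18.1% of all tested genes). At NM day 28, 0 of 46 were higher than in PBS (3.07% of all tested genes) and 2, Psmb8 and Psmd3, were lower (4.35%, against 3.97%). Before adjustment, 3 were higher and 7 lower, when 10.2% and 13.7% of all tested genes were, and the groups did not overlap for 3 higher and 5 lower (12.7% and 14.4% of all). Between the NM groups, Psmd1 and Psmg4 were higher at day 28 than at day 1 (4.35%, against 4.76% of all tested genes) and Psmb8 and Psmd3 were lower (4.35%, against 6.89%). Before adjustment, 5 were higher and 4 lower (12.3% and 14.7% of all tested genes), and 7 higher and 6 lower did not overlap (15.1% and 15.7% of all).

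With all 9 libraries, the bulk of the particle was thus near its PBS level in the medians. The median log2 fold change of the 46 genes was -0.06 at day 1 and -0.12 at day 28, beside -0.04 for all tested genes in both comparisons. Quantile normalisation turned the day 1 median to 0.12, and without NM day 28 replicate 1 the day 28 median was 0.02, so neither median had a stable sign. Without PBS replicate 2 the medians moved the other way, to -0.178 at day 1 and -0.265 at day 28, beside -0.03 for all tested genes in both. The level also depends on the scale. As a share of the summed FPKM of all tested genes, the members made up 0.652%, 0.669% and 0.629% in the PBS libraries. At NM day 1 the shares were 0.755%, 0.717% and 0.738%, above all other libraries, and at NM day 28 they were 0.666%, 0.583% and 0.688%. The 31 core and cap subunits other than the immunoproteasome genes had medians of -0.08 and -0.13. Among the roles, the 3 immunoproteasome genes had a median of -0.08 at day 1 and -0.67 at day 28, the 3 constitutive catalytic genes -0.08 and -0.10, and the 4 structural beta genes -0.14 and -0.33. The 8 alpha ring genes had medians of 0.23 and 0.12, with 0 called in either comparison (1 at an unadjusted limma p under 0.05 in each). The 6 cap ATPases had medians of -0.09 at both times, also with 0 called (1 and 0 unadjusted). Since both NM groups were set against the same PBS libraries, their fold changes are not independent of each other.

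**Figure D2:**
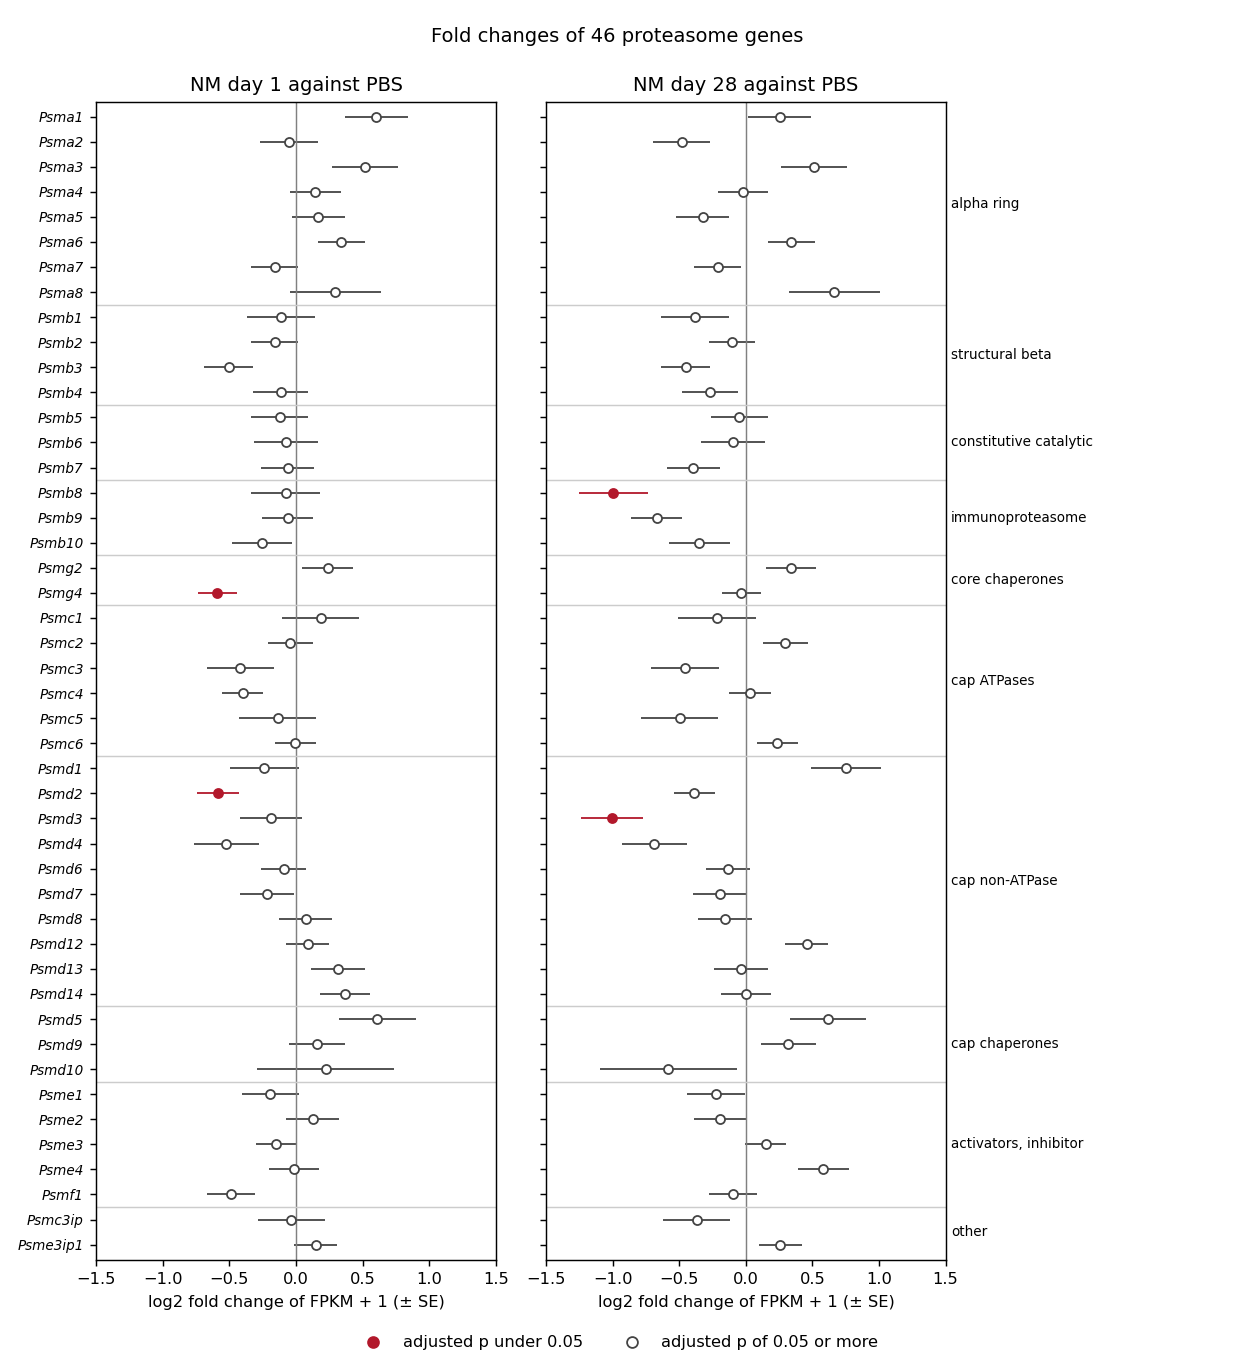
Log2 fold change of FPKM + 1 against PBS (x axis, point and standard error from limma, 3 libraries a group) for the 46 proteasome genes, ordered by role, at NM day 1 (left) and NM day 28 (right), with filled red points where the adjusted p was under 0.05. Psmd2 and Psmg4 are red at day 1 and Psmb8 and Psmd3 at day 28, and most other points lie within 0.5 of zero.

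Psmb8 was the immunoproteasome gene that fell at day 28. It encodes the inducible subunit with chymotrypsin-like activity that takes the place of Psmb5. Its FPKM was 209, 174 and 150 in the PBS libraries, 128, 176 and 207 at NM day 1, and 97.4, 57.6 and 120 at NM day 28. All 3 day 28 libraries lay below all 6 others, while PBS and day 1 overlapped. The mean went from 178 ± 29.3 (SD, n = 3) in PBS and 170 ± 39.6 at day 1 to 91.7 ± 31.6 at day 28. The log2 fold change of day 28 against PBS was -0.997 with a standard error of 0.26 (limma with Benjamini-Hochberg adjustment, adjusted p = 0.0395), and against day 1 it was -0.92 ± 0.26 (adjusted p = 0.0400). At day 1 it was -0.08 against PBS (adjusted p = 0.89). The calls were close to the threshold. For Psmb8 against PBS the limma adjusted p passed 0.05 without NM day 1 replicate 1 (0.0559) or 2 (0.0502), without NM day 28 replicate 0 (0.0701) or 1 (0.0726), and without PBS replicate 0 (0.117) or 1 (0.122). It also passed 0.05 when all genes were tested without the filter (0.0855) or only the 6 libraries compared were fitted (0.0718). Without NM day 28 replicate 1, the library low across the members, the Psmb8 difference from PBS was -0.70. The call against PBS held without PBS replicate 2, the other low library. Against day 1 the Psmb8 call was lost without NM day 1 replicate 1 (adjusted p = 0.119) or 2 (0.137), NM day 28 replicate 0 (0.0700) or 1 (0.0806, difference -0.62), or PBS replicate 1 (0.0592), without the filter (0.0717) and in the fit on 6 libraries (0.0566).

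Psmb9, which replaces Psmb6, showed values of the same order without passing the test. Its FPKM was 209, 193 and 158 in PBS, 161, 164 and 210 at NM day 1, and 134, 90.1 and 129 at NM day 28. Again the 3 day 28 values were the lowest 3 of the 9. The log2 difference of day 28 from PBS was -0.67 ± 0.19 (SE), with an adjusted p of 0.0564 in limma, and that from day 1 was -0.61 ± 0.19 (adjusted p = 0.0615). Without PBS replicate 2, the PBS library that was low across the members, the adjusted p of Psmb9 against PBS was 0.0439, and over all 9 libraries left out in turn it ran up to 0.185, with differences from -0.79 to -0.49.

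Psmb10, which replaces Psmb7, did not separate the groups. Its FPKM was 203, 219 and 175 in PBS, 154, 149 and 201 at NM day 1, and 198, 106 and 179 at NM day 28. The day 28 libraries overlapped both other groups, with replicate 1 alone well below them. The log2 difference of day 28 from PBS was -0.35 ± 0.23 (limma adjusted p = 0.381).

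The constitutive counterparts also overlapped between all groups. Psmb5, with chymotrypsin-like activity, had FPKM of 125, 101 and 71.8 in PBS, 94.3, 81.2 and 91.6 at NM day 1, and 108, 72.7 and 104 at NM day 28. Psmb6, which cuts after acidic residues, had 194, 177 and 128 in PBS, 166, 136 and 165 at day 1, and 206, 105 and 166 at day 28. Psmb7, with trypsin-like activity, had 191, 176 and 135 in PBS, 143, 172 and 161 at day 1, and 141, 94.6 and 150 at day 28. In each gene PBS replicate 2 was the lowest PBS library and NM day 28 replicate 1 the lowest day 28 library. Their log2 differences of day 28 from PBS were -0.05 ± 0.21 for Psmb5, -0.10 ± 0.24 for Psmb6 and -0.39 ± 0.20 for Psmb7, with limma adjusted p of 0.921, 0.848 and 0.256. At day 1 they were -0.12, -0.08 and -0.06, with adjusted p of 0.772, 0.88 and 0.882. The signs of Psmb5 and Psmb6 turned under quantile normalisation at both times, and that of Psmb7 at day 1.

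**Figure D3:**
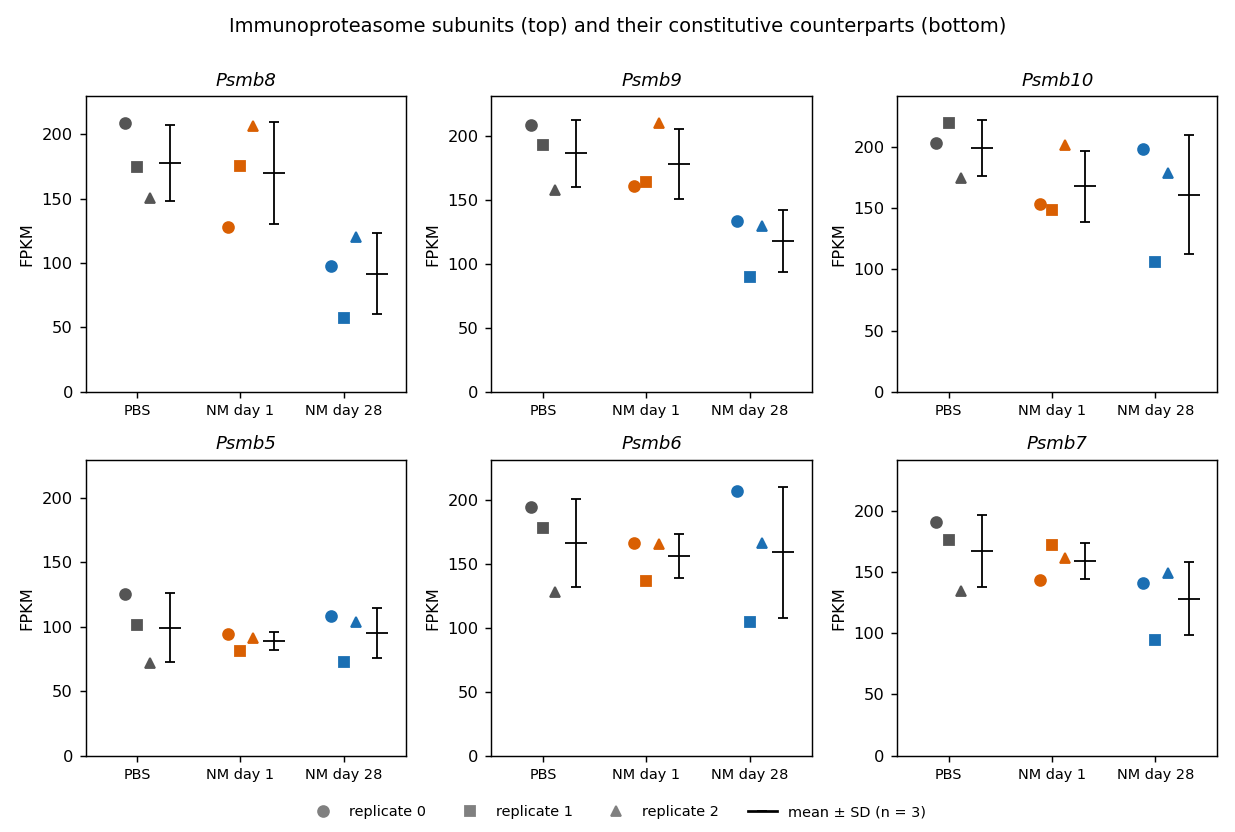
FPKM (y axis, from 0) of the immunoproteasome genes Psmb8, Psmb9 and Psmb10 (top) and of the constitutive genes Psmb5, Psmb6 and Psmb7 (bottom) in PBS, NM day 1 and NM day 28, with 1 symbol per replicate and the mean ± SD of 3 libraries beside it. Psmb8 at day 28 lies between 57.6 and 120, below every other library, and the constitutive genes overlap in all groups.

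Setting each immunoproteasome gene against its counterpart within a library removes what the library shares between both. The log2 ratio of Psmb8 to Psmb5 was 0.74, 0.79 and 1.06 in the PBS libraries, 0.44, 1.11 and 1.17 at NM day 1, and -0.15, -0.34 and 0.21 at NM day 28. Every day 28 library had a lower ratio than every other library, and 2 of the 3 had less Psmb8 than Psmb5. As a share of the summed FPKM of the pair, Psmb8 made up 64.5% ± 2.79 (SD, n = 3) in PBS, 65.1% ± 6.52 at day 1 and 48.4% ± 4.80 at day 28. The mean log2 ratio at day 28 was different from PBS by -0.95 and from day 1 by -1.001, each with an exact two-sided permutation p of 0.1, the smallest that 3 against 3 libraries can give. Day 1 and PBS differed by 0.05 (exact permutation p = 0.8). Over the 3 groups the exact permutation test on the F statistic, with 280 ways to part the libraries, gave p = 0.0321, or 0.0536 after adjustment over the 3 ratios.

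The ratio of Psmb9 to Psmb6 had the same order. Its log2 values were 0.11, 0.12 and 0.30 in PBS, -0.05, 0.27 and 0.34 at NM day 1, and -0.62, -0.22 and -0.36 at NM day 28. No day 28 library overlapped the others, and in NM day 28 replicate 1, the library low across the members, the ratio was the highest of the 3. Psmb9 made up 53.0% ± 1.88 of the pair in PBS, 53.3% ± 3.59 at day 1 and 43.1% ± 3.50 at day 28. The differences of day 28 were -0.58 from PBS and -0.59 from day 1 (exact permutation p = 0.1 each, the smallest possible), and over the 3 groups p was 0.0357, or 0.0536 adjusted. Psmb10 to Psmb7 behaved otherwise, with log2 ratios of 0.09, 0.32 and 0.38 in PBS, 0.10, -0.21 and 0.32 at day 1, and 0.49, 0.17 and 0.26 at day 28. These overlapped in all groups, and the 3-group exact permutation test gave p = 0.411, also after adjustment. Leaving out single libraries kept the day 28 difference from PBS between -1.11 and -0.83 for Psmb8 to Psmb5 and between -0.67 and -0.46 for Psmb9 to Psmb6. With a library left out, the adjusted 3-group p of both ratios ran from 0.0214 without NM day 1 replicate 0 to 0.107 without NM day 28 replicate 0. It was 0.0482 without PBS replicate 2, 0.102 without NM day 28 replicate 1, and between 0.0589 and 0.0696 without any of the other 5 libraries.

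**Figure D4:**
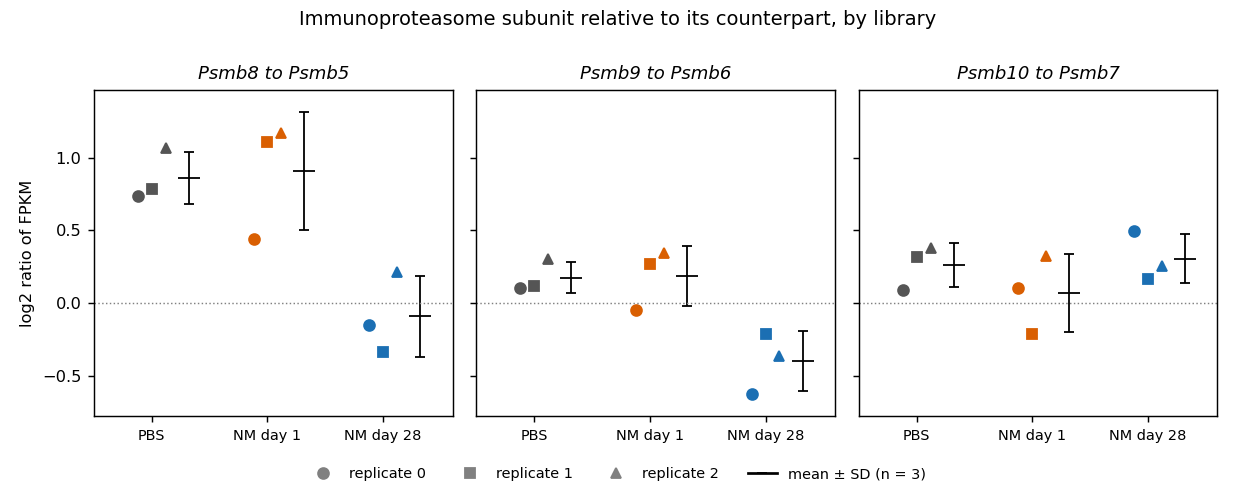
Log2 ratio of the FPKM of each immunoproteasome gene to that of its constitutive counterpart (y axis) in PBS, NM day 1 and NM day 28, with 1 symbol per replicate and the mean ± SD of 3 libraries beside it. The ratios of Psmb8 and Psmb9 are lowest in the 3 day 28 libraries, and the ratio of Psmb10 overlaps in all groups.

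Psmb8 and Psmb9 lie side by side with the peptide transporter genes in the MHC class II region of rat chromosome 20, in the order Tap2, Psmb8, Tap1 and Psmb9, whereas Psmb10 is on chromosome 19. The promoter windows of these genes and of Psmb5 are shown because Psmb8 and Tap2, which fell at day 28, lie among them. That of Psmd3 is shown because it also fell at day 28. Those of the other called members, Psmd1, Psmd2 and Psmg4, are not shown. Sequences are from RefSeq (build GRCr8), each covering 250 bases before to 50 bases after the annotated start on the gene's strand. They are Psmb8 at chr20:4656982-4657281 (minus strand), Psmb9 at chr20:4668750-4669049 (plus), Tap1 at chr20:4668494-4668793 (minus), Tap2 at chr20:4652247-4652546 (minus), Psmb10 at chr19:50743243-50743542 (minus), Psmb5 at chr15:32047330-32047629 (minus) and Psmd3 at chr10:84139688-84139987 (plus). Capitals mark matches, on either strand, to an interferon regulatory factor (IRF) element GAAANNGAAA, a STAT-binding GAS element TTCNNNGAA, or the antioxidant response element (ARE) core TGACNNNGC.
Psmb8: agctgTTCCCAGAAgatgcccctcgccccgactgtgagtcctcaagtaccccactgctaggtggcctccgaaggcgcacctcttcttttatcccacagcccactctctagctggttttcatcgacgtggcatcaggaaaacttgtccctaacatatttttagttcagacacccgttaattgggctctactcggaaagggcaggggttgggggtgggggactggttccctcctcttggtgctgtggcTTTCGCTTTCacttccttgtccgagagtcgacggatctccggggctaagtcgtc
Psmb9: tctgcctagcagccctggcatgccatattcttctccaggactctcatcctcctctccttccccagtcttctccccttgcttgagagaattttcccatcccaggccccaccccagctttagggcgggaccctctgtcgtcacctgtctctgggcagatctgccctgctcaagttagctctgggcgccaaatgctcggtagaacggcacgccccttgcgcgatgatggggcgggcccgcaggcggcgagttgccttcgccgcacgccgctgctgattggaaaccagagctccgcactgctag
Tap1: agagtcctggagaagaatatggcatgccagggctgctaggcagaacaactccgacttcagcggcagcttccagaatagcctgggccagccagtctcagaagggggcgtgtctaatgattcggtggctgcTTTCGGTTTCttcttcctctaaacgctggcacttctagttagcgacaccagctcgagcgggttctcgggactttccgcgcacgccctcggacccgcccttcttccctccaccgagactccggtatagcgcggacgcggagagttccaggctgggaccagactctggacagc
Tap2: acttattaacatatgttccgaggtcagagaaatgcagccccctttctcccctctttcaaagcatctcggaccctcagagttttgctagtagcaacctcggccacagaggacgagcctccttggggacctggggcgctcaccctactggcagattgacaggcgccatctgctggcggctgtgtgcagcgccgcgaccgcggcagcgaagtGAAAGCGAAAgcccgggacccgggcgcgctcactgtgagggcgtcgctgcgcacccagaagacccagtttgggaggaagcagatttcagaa
Psmb10: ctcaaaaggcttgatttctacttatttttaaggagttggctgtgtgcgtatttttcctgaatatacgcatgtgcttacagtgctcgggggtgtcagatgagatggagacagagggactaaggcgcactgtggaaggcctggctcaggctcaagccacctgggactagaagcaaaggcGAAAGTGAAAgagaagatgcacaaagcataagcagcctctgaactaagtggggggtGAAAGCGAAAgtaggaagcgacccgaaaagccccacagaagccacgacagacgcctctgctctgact
Psmb5: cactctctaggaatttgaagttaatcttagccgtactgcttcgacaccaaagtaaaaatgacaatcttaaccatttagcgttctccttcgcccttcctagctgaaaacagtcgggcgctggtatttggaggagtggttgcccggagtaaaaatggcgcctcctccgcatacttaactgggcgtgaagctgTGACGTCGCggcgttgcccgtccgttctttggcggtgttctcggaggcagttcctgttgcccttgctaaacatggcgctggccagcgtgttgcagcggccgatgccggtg
Psmd3: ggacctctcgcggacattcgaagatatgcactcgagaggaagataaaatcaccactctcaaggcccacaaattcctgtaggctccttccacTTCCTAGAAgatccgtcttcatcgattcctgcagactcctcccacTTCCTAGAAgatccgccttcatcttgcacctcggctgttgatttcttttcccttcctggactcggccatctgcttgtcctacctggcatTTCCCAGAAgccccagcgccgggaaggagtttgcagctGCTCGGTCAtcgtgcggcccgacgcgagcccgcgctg

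Tap1 and Psmb9 are read away from each other, and their windows share 44 bases. An IRF element was found in the windows of Psmb8 (starting 4 bases before the annotated start), Tap1 (121 bases before), Tap2 (41 bases before) and Psmb10 (73 and 17 bases before). The Psmb9 window held none of the 3 motifs. The IRF match in the Tap1 window lies between the annotated starts of Tap1 and Psmb9, beyond the upstream end of the Psmb9 window. Among all 27457 RefSeq windows 3.77% held the IRF element, and 7 of the 42 members with a window did (16.7%), namely Psma4, Psmb3, Psmb8, Psmb10, Psmd7, Psme2 and Psmg4. Psmb10 thus had the motif with no call at day 28. The GAS element was in 8.68% of all windows and in 4 of the 42, which were Psmb8, Psmc6, Psmd3 and Psmd7. The Psmd3 window held it at 3 places. The ARE core was in 12.2% of all windows and in 8 of the 42, which were Psma3, Psmb2, Psmb5, Psmb6, Psmd1, Psmd3, Psmd9 and Psme4. The matches overlapped no other match in the windows shown, and they describe letters in these windows only.

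Some of the genes that load proteasome products onto MHC class I were also lower at day 28. Of 10 listed peptide loading genes 8 were tested, and 4 fell at day 28 against PBS (3.97% of all tested genes did), 4 against day 1 (6.89% of all), and 0 were called at day 1 against PBS (0 also at an unadjusted limma p under 0.05). The median log2 fold change of the 8 was -0.82 against PBS, and all 8 had negative values, as had 54.2% of all tested genes, whose median was -0.04. Tap2, a subunit of the peptide transporter, had FPKM of 34.9, 31.8 and 26.6 in PBS, 23.1, 39.4 and 29.6 at day 1, and 17.3, 8.20 and 15.0 at day 28. The day 28 libraries were the lowest 3, and the log2 fold change against PBS was -1.20 ± 0.26 (limma adjusted p = 0.0187). The Tap2 call against PBS was lost without PBS replicate 0 (adjusted p = 0.0625) or 1 (0.0742), and that against day 1 (-1.16, adjusted p = 0.0154) without NM day 1 replicate 1 (0.0718).

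Tap1, the partner of Tap2, had FPKM of 35.1, 34.5 and 28.2 in PBS, 36.9, 43.7 and 44.1 at NM day 1, and 25.1, 18.6 and 22.9 at NM day 28. The 3 groups did not overlap, with day 1 highest and day 28 lowest. Tap1 fell from day 1 to day 28 by 0.88 on the log2 scale (limma adjusted p = 0.00639), a call that held in all 20 alternatives, while its difference from PBS at day 28 was -0.54 (adjusted p = 0.0791). Tapbpl, a peptide editor of MHC class I, had 28.3, 22.4 and 19.4 in PBS, 20.2, 24.4 and 24.8 at day 1, and 15.1, 8.24 and 9.24 at day 28. Its day 28 values were the lowest 3, at -1.07 ± 0.23 against PBS (limma adjusted p = 0.0159). The Tapbpl call was lost without NM day 28 replicate 2 (0.0591), PBS replicate 0 (0.0602) or PBS replicate 1 (0.0591) and in the fit on 6 libraries (0.0507), whereas against day 1 (-1.07, adjusted p = 0.0106) it held in all 20 alternatives.

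Pdia3, a disulfide isomerase of the loading complex, was lower at day 28 than in PBS by a log2 fold change of -0.79 (limma adjusted p = 0.0408) and than at day 1 by -1.03 (adjusted p = 0.00809). Calr, the chaperone calreticulin, was at -0.85 against PBS (adjusted p = 0.0414). The Pdia3 and Calr calls against PBS were weak. For Pdia3 the limma adjusted p was 0.0571 without NM day 1 replicate 1, 0.0556 without NM day 1 replicate 2, 0.0712, 0.0635 and 0.119 without NM day 28 replicate 0, 1 and 2, and 0.125 and 0.137 without PBS replicate 0 and 1. For Calr the corresponding values were 0.051, 0.0549, 0.0746, 0.0609, 0.122, 0.128 and 0.151. Both calls were also lost without the filter (0.0737 for Pdia3 and 0.0796 for Calr), with the replicate block (0.0551 and 0.0612) and in the fit on 6 libraries (0.0790 and 0.0548), and that of Calr under quantile normalisation (-0.55, 0.0687). The Pdia3 call against day 1 held in all 20 alternatives.

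**Figure D5:**
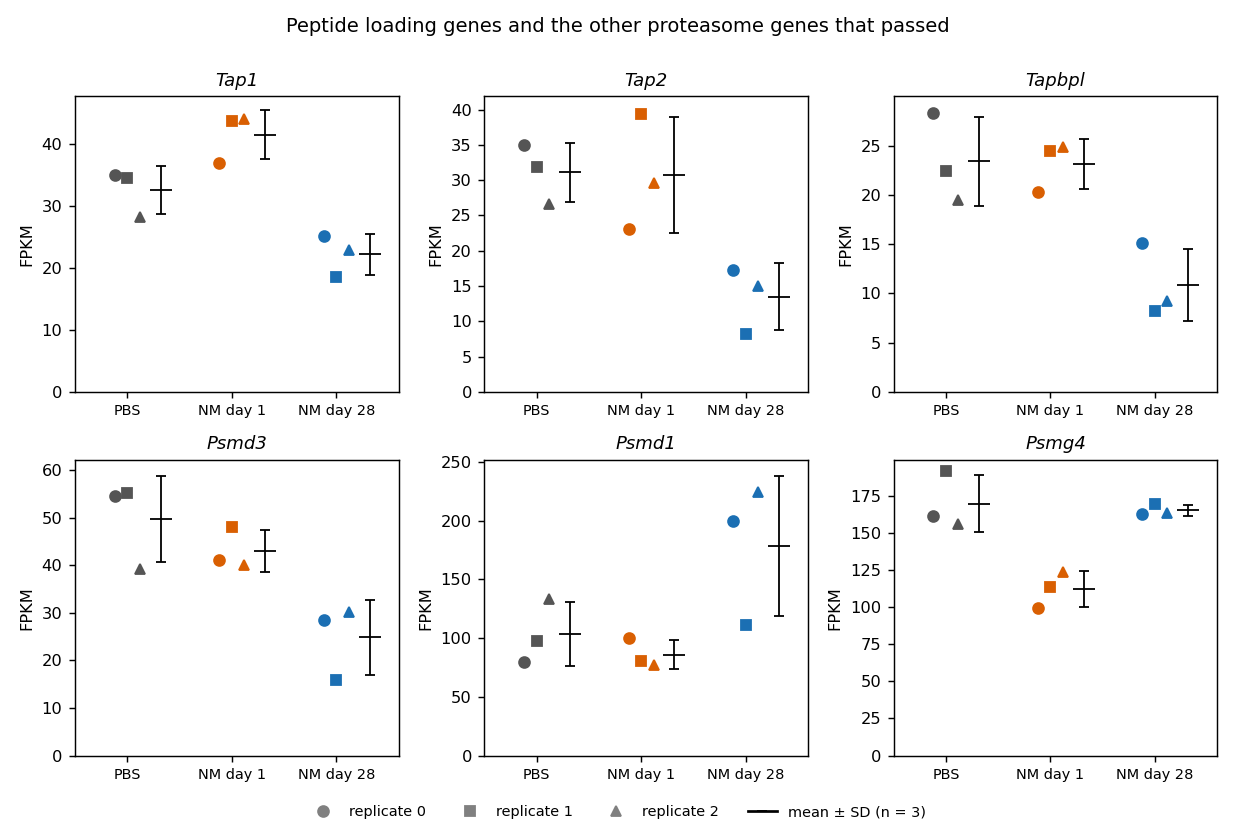
FPKM (y axis, from 0) of the peptide loading genes Tap1, Tap2 and Tapbpl (top) and of the proteasome genes Psmd3, Psmd1 and Psmg4 (bottom) in PBS, NM day 1 and NM day 28, with 1 symbol per replicate and the mean ± SD of 3 libraries beside it. Tap1, Tap2, Tapbpl and Psmd3 are lowest in the day 28 libraries, and Psmg4 is lowest in the 3 day 1 libraries.

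Genes of interferon gamma signalling, which induces the immunoproteasome in many cells, were listed as well. Of 16 listed genes 14 were tested. At NM day 1, 3 of these were higher than in PBS (5.3% of all tested genes were), namely Ciita, the master activator of MHC class II (log2 fold change 3.23, limma adjusted p = 2.88e-05), the chemokine Cxcl10 (2.14, 0.00935) and the transcription factor Irf8 (0.88, 0.0163). The Cxcl10 call was lost with a pseudocount of 0.1 (adjusted p = 0.0649). Ciita had FPKM of 0.179, 0.631 and 1.07 in PBS and at most 0.190 at day 28. Cxcl10 had 0.763, 1.06 and 0.230 in PBS and at most 1.22 at day 28. Both passed the filter only through the day 1 libraries, so the filter favoured their calls that involve day 1. The Ciita difference at day 1 ran from 1.75 to 4.49 over the alternatives. The Irf8 call was lost without NM day 1 replicate 1 or PBS replicate 1 (adjusted p up to 0.0804). At day 28, 0 of the 14 were called against PBS by limma (0 also before adjustment), with log2 fold changes from -0.50 to 0.22. Among all tested genes 3.07% were called higher and 3.97% lower. Against day 1 the same 3 were lower at day 28 and so was Socs1, a feedback inhibitor (-1.24, limma adjusted p = 0.0275). These are 4 of the 14, beside 6.89% of all tested genes. The Socs1 call was lost when replicate 0 or 2 of either NM group was left out (highest adjusted p 0.108) or without the filter (0.0600). Ifng itself was listed at 0 in all 9 libraries. So were Ido1 of the same list and, among the cell type markers below, Marco and Sftpd. Whether such transcripts were quantified is not stated, so this 0 cannot be read as absence of Ifng. At day 1, when Ciita, Cxcl10 and Irf8 were called higher, the log2 differences of Psmb8, Psmb9 and Psmb10 from PBS were -0.08, -0.06 and -0.25, with limma adjusted p of 0.89, 0.877 and 0.531. Quantile normalisation turned the first and second of these to 0.12 and 0.13.

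The activator genes Psme1 and Psme2, whose products form a ring that opens the core and that interferon also induces, did not pass in any comparison. Psme1 had FPKM of 299, 367 and 316 in PBS, 202, 307 and 373 at NM day 1, and 259, 326 and 256 at NM day 28. Psme2 had 153, 163 and 118 in PBS, 135, 144 and 196 at day 1, and 142, 101 and 137 at day 28. Both overlapped between all groups. Their log2 differences of day 28 from PBS were -0.23 ± 0.22 and -0.19 ± 0.20, with limma adjusted p of 0.571 and 0.605. Psme4, an activator known from work on sperm and DNA repair, had 34.0, 36.9 and 36.2 in PBS, 30.0, 33.1 and 44.1 at day 1, and 47.1, 68.1 and 48.8 at day 28. Its day 28 values were above all others, at 0.58 ± 0.19 against PBS (adjusted p = 0.085) and 0.60 ± 0.19 against day 1 (adjusted p = 0.0604). Without NM day 1 replicate 2 the latter adjusted p of Psme4 was 0.0407.

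Among cap genes, Psmd3, a non-ATPase scaffold subunit, fell at day 28. Its FPKM was 54.5, 55.1 and 39.2 in PBS, 41.0, 48.0 and 40.0 at NM day 1, and 28.5, 15.8 and 30.1 at NM day 28. The day 28 libraries were below all others. The log2 fold change was -1.01 ± 0.23 against PBS (limma adjusted p = 0.0245) and -0.82 ± 0.23 against day 1 (adjusted p = 0.0425). The Psmd3 call against PBS was lost without PBS replicate 0 (0.0771) or 1 (0.110) and kept without NM day 28 replicate 1 or PBS replicate 2. It was also lost without the filter (0.0551) and in the fit on 6 libraries (0.0677). Against day 1 the Psmd3 call was lost without NM day 1 replicate 0 (0.0957), 1 (0.140) or 2 (0.0832), NM day 28 replicate 0 (0.0515) or 1 (0.0750, difference -0.53), or PBS replicate 1 (0.0601), without the filter (0.0689), with the replicate block (0.0546) and in the fit on 6 libraries (0.0565).

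Psmd1, a large scaffold subunit of the cap, was higher at day 28 than at day 1. Its FPKM was 79.5, 97.7 and 133 in PBS, 99.8, 81.0 and 77.3 at NM day 1, and 200.05, 111 and 225 at NM day 28. The day 28 libraries lay above day 1 but replicate 1 lay within the PBS range. The log2 fold change against day 1 was 0.99 ± 0.26 (limma adjusted p = 0.0287) and that against PBS was 0.75 ± 0.26 (adjusted p = 0.101). The Psmd1 call was lost without NM day 1 replicate 0 (0.0514), 1 (0.0950) or 2 (0.0938), and likewise without replicate 0 (0.0998) or 2 (0.107) of day 28 or without the filter (0.0562). Without NM day 28 replicate 1 the Psmd1 difference from PBS was 1.06 and its adjusted p 0.0126.

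Psmd2, the other large scaffold subunit, fell at day 1. Its FPKM was 244, 227 and 183 in PBS, 136, 147 and 149 at NM day 1, and 171, 149 and 177 at NM day 28. All NM libraries were below all PBS libraries. The log2 fold change against PBS was -0.59 ± 0.15 at day 1 (limma adjusted p = 0.0332) and -0.39 ± 0.15 at day 28 (adjusted p = 0.149). The Psmd2 call was lost under median-of-ratios scaling (-0.55, 0.0504), quantile normalisation (-0.37, 0.0813) and the replicate block (0.0601), and without NM day 1 replicate 0 (0.134), 1 (0.0781) or 2 (0.0703), NM day 28 replicate 0 (0.0511), or PBS replicate 0 (0.104) or 1 (0.138).

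Psmg4, a chaperone of core assembly, fell at day 1 and was back in the PBS range at day 28. Its FPKM was 162, 192 and 156 in PBS, 99.4, 114 and 124 at NM day 1, and 163, 170 and 164 at NM day 28. The day 1 libraries were below all others, and day 28 overlapped PBS. The log2 fold change was -0.59 ± 0.15 at day 1 against PBS (limma adjusted p = 0.0270), 0.56 ± 0.15 for day 28 against day 1 (adjusted p = 0.0300) and -0.03 ± 0.15 for day 28 against PBS (adjusted p = 0.923). The Psmg4 call at day 1 was lost without NM day 1 replicate 0 (0.127), NM day 1 replicate 1 (0.0679), PBS replicate 0 (0.0549) or PBS replicate 1 (0.141), and under quantile normalisation (-0.40, 0.0973). Its call between the NM groups was lost without NM day 1 replicate 0 (0.112), NM day 1 replicate 1 (0.0773), NM day 28 replicate 0 (0.0782) or its replicate 2 (0.0775). The RefSeq table lists 2 pseudogenes for Psmg4, 1 for Psmd1 and 0 for Psmb8.

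Besides Psmd1 at day 28, the members with the largest positive differences from PBS that did not pass were Psmd5, Psma1 and Psma8. Psmd5, a cap chaperone, had FPKM of 11.9, 8.96 and 8.50 in PBS, 22.6, 11.8 and 13.4 at NM day 1, and 18.1, 10.03 and 19.98 at NM day 28, overlapping in all groups. Its log2 difference from PBS was 0.61 at day 1 (limma adjusted p = 0.207) and 0.62 at day 28 (0.213). Psma1, an alpha ring gene, had 80.5, 50.1 and 39.6 in PBS and 100.4, 66.8 and 85.0 at day 1, a difference of 0.60 (adjusted p = 0.133). Without PBS replicate 0, its highest PBS library, Psma1 passed with an adjusted p of 0.0285. Psma8 had 8.08, 10.6 and 18.5 in PBS and 23.2, 13.1 and 22.9 at day 28, at 0.66 (adjusted p = 0.267).

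Genes that act with the proteasome were also compared. Of 12 associated factors without a Psm symbol, such as the deubiquitinase Usp14, 7 were tested and 0 were called by limma in any comparison, with 0, 1 (Usp14) and 1 (Zfand2a) at an unadjusted p under 0.05 at day 1, at day 28 and between the NM groups. Among all tested genes 5.3%, 3.07% and 4.76% were called higher in these comparisons and 4.59%, 3.97% and 6.89% lower, so 0 of 7 is near that share. Of 10 genes of the pathway that restores proteasome transcription after inhibition, 8 were tested. Nfe2l1, the factor Nrf1 around which this list was made, and Ddi2 were not among them, so their levels are not given. Of the 8, 1 was called higher than in PBS at day 1 (5.3% of all tested genes were) and 1 at day 28 (3.07%). Between the NM groups 1 was higher at day 28 (4.76%), and 0 were lower in any comparison. Nfe2l2, a transcription factor of the oxidative stress response, was higher than in PBS at day 1 by 0.73 on the log2 scale (limma adjusted p = 0.0257) and at day 28 by 0.66 (0.0480). Its FPKM was 31.9, 24.1 and 29.0 in PBS, 58.3, 46.3 and 39.4 at day 1, and 42.0, 43.0 and 50.2 at day 28, with all NM libraries above all PBS libraries. The Nfe2l2 call at day 1 was lost without NM day 1 replicate 0 or 1 or PBS replicate 1 (adjusted p up to 0.125), and at day 28 it was lost without any single library other than NM day 1 replicate 0 (adjusted p up to 0.206), as well as with a pseudocount of 5 (0.0516), without the filter (0.0696), with the highest isoform only (0.0529), with the replicate block (0.0609) and in the fit on 6 libraries (0.0693). Mafg, a small partner of such factors, was higher at day 28 than at day 1 by 0.57 (adjusted p = 0.0347), a call lost without NM day 1 replicate 0, 1 or 2, NM day 28 replicate 0 or 2, or PBS replicate 1 (adjusted p up to 0.129), under quantile normalisation (0.0625) and with the replicate block (0.0506).

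Marker genes of several cell types were compared between the groups. Of 10 alveolar macrophage markers 6 had a row. Their summed FPKM was 810 to 1525 in PBS, 696 to 865 at NM day 1 and 767 to 959 at NM day 28, with Marco listed at 0 in all 9, as was Sftpd among the epithelial markers. Of the 5 that were tested, Mrc1, Pparg, Fabp4 and Siglec1 were present in every library, while Car4 had FPKM of 0, 0.155 and 0.609 in PBS. By limma, Car4 was higher than in PBS at day 1 (log2 fold change 3.33, adjusted p = 0.00104) and at day 28 (2.46, 0.00947), Pparg was lower at day 1 (-0.57, 0.0313) and Mrc1 was lower at day 28 (-0.73, 0.0321). Pparg and Siglec1 were higher at day 28 than at day 1 (0.61 and 0.93, limma adjusted p = 0.0191 and 0.0365). Against PBS 1 of the 5 was thus called higher and 1 lower at each time, and between the NM groups 2 were higher. Among all tested genes 5.3% were higher and 4.59% lower at day 1, and 3.07% and 3.97% at day 28. Between the NM groups 4.76% were higher. The summed FPKM of neutrophil markers was 72.5 to 107 in PBS, 532 to 906 at day 1 and 211 to 723 at day 28, and that of monocyte and recruited macrophage markers 63.4 to 85.8, 208 to 285 and 139 to 212. Of 7 tested neutrophil markers 5 were called higher than in PBS at day 1 and 4 at day 28, while Camp and Ngp had negative differences at both times. Of 10 monocyte markers 8 were called higher at day 1 and 4 at day 28, when Plac8, Vcan and Cx3cr1 had negative differences. T cell markers summed to 22.4 to 33.4 in PBS, 61.4 to 71.4 at day 1 and 28.3 to 35.0 at day 28, natural killer cell markers to 5.75 to 5.88, 39.8 to 48.4 and 9.03 to 20.4, and dendritic cell markers to 5.41 to 8.01, 23.5 to 26.3 and 7.37 to 12.6. Alveolar epithelium markers summed to 216 to 329, 1006 to 3019 and 276 to 379, and B cell markers to 1.45 to 7.91, 1.98 to 3.62 and 0.285 to 0.848. Of the 11 tested epithelium markers 10 had positive differences from PBS at day 1, and Napsa a negative one (-0.37). At day 28 limma called Hopx higher (1.19, adjusted p = 0.0337) and Aqp5 lower (-2.36, adjusted p = 0.00114). Immune cells of other kinds also express the immunoproteasome and the peptide loading genes. In such bulk samples fewer cells of a type and less RNA per cell cannot be told apart, and the part of these cells in the day 28 values of Psmb8 and in the peptide loading genes was not tested.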

How the data were processed

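Library strand was not given in the sources used here. RNA was extracted with RNeasy columns, made into TruSeq libraries and read as paired ends of 75 bases, per the labels' protocols. Per the submitters' processing notes, the authors used TopHat and Cuffdiff with the rat build rn4 and deposited FPKM per RefSeq transcript. Versions, the annotation and how multiply mapped reads were treated are not stated there. FPKM carry no counts, so the absolute depth is unknown, and only 3 libraries a group limit the precision. Relative depths were read from the smallest steps of low FPKM values.

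Of 18197 transcript rows, 17181 (94.4%) matched a symbol in the RefSeq table (assembly GRCr8), and FPKM were summed per symbol. limma 3.58.1 in R 4.3.3 (lmFit, eBayes with a trend) was fitted on log2(FPKM + 1) with 3 group means over all 9 libraries. The pseudocount of 1 understates fold changes of low genes. P-values were adjusted by Benjamini-Hochberg over 9876 genes. Ratios were tested with exact permutations (numpy 2.4.6), two-sided for pairs of groups and on the F statistic over the 3 groups. The code was tested on simulated data. Values are named for Psmb5 to Psmb10, Psme1, Psme2, all called members, the 2 largest differences each way in each comparison, and called genes of the other lists, up to 4 per comparison. Psmd10 was named after its values were seen. Members, lists and markers were chosen with earlier results of these data known. Same-numbered libraries did not deviate together more than others (r from -0.10 to 0.20 over 9 pairs, others -0.26 to 0.25), so the numbers were not used as pairs. With 3 libraries a group these correlations cannot exclude that equal numbers share a batch. Alternatives tried were a pseudocount of 0.1 or of 5, testing all genes, a minimum FPKM of 5, scaling by median of ratios or by quantiles, the highest isoform only, a replicate block, a fit on the 6 libraries compared, robust eBayes, array weights, and each library left out. The list of ubiquitin genes is not reported here.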

Additional observations from a re-analysis of the deposited data

Results flagged for a closer look

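The difference of the NM groups from the same PBS libraries was not the same at the 2 times for 4 proteasome genes. This was read from the test of day 28 against day 1. Psmb8 was lower at day 28 by a log2 difference of -0.92 and Psmd3 by -0.82 (-0.818 before rounding), while Psmd1 was higher by 0.99 (0.992 before rounding) and Psmg4 by 0.56 (0.559 before rounding). These are 4.35% of the 46 members in each direction, beside 4.76% higher and 6.89% lower among all tested genes. The limma adjusted p were 0.0400, 0.0425, 0.0287 and 0.0300. Because both differences are taken from the same PBS libraries, this test equals that between the NM groups. Without a PBS group for each day, age and collection occasion cannot be told apart from time since NM. Groups of 3 libraries were not screened for single deviating libraries.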

How the results depend on the processing

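Each comparison was recomputed under 11 other settings and with each of the 9 libraries left out. The 8 called differences of named proteasome genes kept their direction in all 20. The counts of called proteasome genes are small and moved easily. Against PBS at day 1, quantile normalisation called 1 higher (Psma6) and 0 lower, and median-of-ratios scaling and the replicate block each called 1 lower. At day 28 against PBS, quantile normalisation (Psma6) and array weights (Psmd1) each called 1 higher, while no filter and the fit on 6 libraries called 0 lower. For day 28 against day 1, no filter called 1 higher and 0 lower, array weights 4 higher, quantile normalisation 4 lower (with Psma5 and Psmb9), the replicate block 1 lower and the fit on 6 libraries 0 lower. With a library left out, counts ran from 0 to 1 higher and 0 to 3 lower at day 1, 0 to 1 and 0 to 3 at day 28, and 0 to 2 and 0 to 2 between the NM groups. The unadjusted 3-group exact permutation p ran from 0.00714 to 0.0679 for Psmb8 to Psmb5 and from 0.0143 to 0.0714 for Psmb9 to Psmb6. The cause of these moves was not tested, except that the tests without the filter cover more genes and those on 6 libraries rest on fewer. Array weights brought Psmb9 under 0.05 at day 28 against both groups (adjusted p = 0.0411 and 0.0298).

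Signs turned only in differences that did not pass. Under quantile normalisation the day 1 difference from PBS was 0.072 for Psmb5, 0.12 for Psmb6, 0.14 for Psmb7, 0.12 for Psmb8, 0.13 for Psmb9, 0.030 for Psme1 and 0.057 for Psme4, and that of day 28 was 0.050 for Psmb5, 0.057 for Psmb6 and 0.12 for Psmg4. Median-of-ratios scaling gave 0.021 and array weights 0.049 for Psme4 at day 1, and array weights 0.014 for Psmb6 at day 28. With a library left out, the day 1 differences ran from -0.34 to 0.060 for Psmb5, -0.26 to 0.043 for Psmb6, -0.21 to 0.040 for Psmb7, -0.23 to 0.11 for Psmb8, -0.19 to 0.022 for Psmb9, -0.39 to 0.056 for Psme1, -0.039 to 0.23 for Psme2 and -0.17 to 0.096 for Psme4, and those of day 28 from -0.26 to 0.13 for Psmb5, -0.31 to 0.17 for Psmb6 and -0.092 to 0.056 for Psmg4. The replicate block ended the limma call of Psmd2 at day 1 (adjusted p = 0.0601) and of Psmd3 between the NM groups (0.0546) and no other call of a proteasome gene. Whether the replicate numbers mark pairs is not known. The absolute depth is unknown.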
